A study of Mus musculus with 2 samples.

Results

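The cytosolic HSP70 and HSP90 chaperones form a folding relay, and 10 of their genes were taken by name as a set. They are Hspa8, Hspa4, Hsph1, Dnajb1, Dnaja1, Bag3, Hsp90aa1, Hsp90ab1, Stip1 and Ahsa1. This set, like the further lists below, was chosen with earlier results of these data known. Probe sets annotated with one of these symbols alone were used, and a gene with several was represented by the probe set whose mean over both arrays was highest. This gave 9 genes of the 19935 in all; Hsp90ab1, the constitutive cytosolic HSP90, was not analysed here because no probe set carried its symbol alone. The samples were Ba/F3 cells, a mouse pro-B-like line that needs interleukin-3 (IL-3) to live, made to express BCR-ABL, the fusion kinase of chronic myeloid leukaemia that replaces that need. The culture with IL-3, titled Live-IL3, had BCR-ABL, 10% serum, IL-3 and a 6 h exposure to imatinib, an ABL kinase inhibitor, at 5 µM. In the culture without IL-3, titled Live-NoIL-3, cells of the same kind had the same serum and, by the treatment protocol, the same imatinib exposure, but no IL-3. The submitters state that cells with IL-3 resist the drug and cells without it die, and both titles call the cells live.

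Each culture had 1 array, so no difference below has a replicate error or a test. The groups follow the titles; the description of the sample titled Live-IL3 says that IL-3 was absent, and the source name of Live-NoIL-3 can be read as without imatinib. Values are the authors' log values, read as log2, set against an unstated baseline for every probe set, so they show no expression level and are not compared between genes as levels. Log base, baseline and the direction of the scale are unstated, and a higher value was read as more RNA. A difference is always with IL-3 minus without IL-3. Between probe sets of the same gene the difference had a pooled SD of 0.14 over 998 genes, which covers only measurement within these arrays and is a lower bound on the error. In such bulk RNA, fewer cells of a type and less RNA per cell cannot be told apart.

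HSP70 proteins bind exposed hydrophobic stretches of a client protein in a cycle driven by ATP. J-proteins deliver the client and trigger ATP hydrolysis, and nucleotide exchange factors of the HSP110 and BAG families reset the cycle. Clients such as kinases are then passed to HSP90 through the adaptor STIP1, also called HOP, and AHSA1 speeds the ATPase cycle of HSP90. BCR-ABL is a well-known HSP90 client. Heat shock factor HSF1 drives many of these genes under protein stress through the heat shock element, a run of inverted GAA units.

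Stip1 and Hsp90aa1 were the genes of the set at least 1.5-fold higher with IL-3, with differences of 0.99 and 0.69 on the log2 scale, and Hsp90aa1 fell short of that bound after quantile normalization and after loess. Ahsa1, the third HSP90-side gene measured, differed by 0.45. The 6 genes of the HSP70 cycle had differences of -0.01 to 0.40, with a median of 0.13. The highest of them, Hspa4, lay too close to Ahsa1 to be ordered below it, and Hsp90ab1 is missing from the HSP90 side. Stip1, whose protein works with both HSP70 and HSP90, was counted on the HSP90 side. This grouping by role was drawn with the values known, and the difference between the sides was not tested. Of the 9 genes measured, 8 were above 0 with IL-3. The median difference over the 9 genes was 0.14 and the mean was 0.33, beside a median of 0.04 over all 19935 genes, of which 59.8% were above 0.

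**Figure D1:**
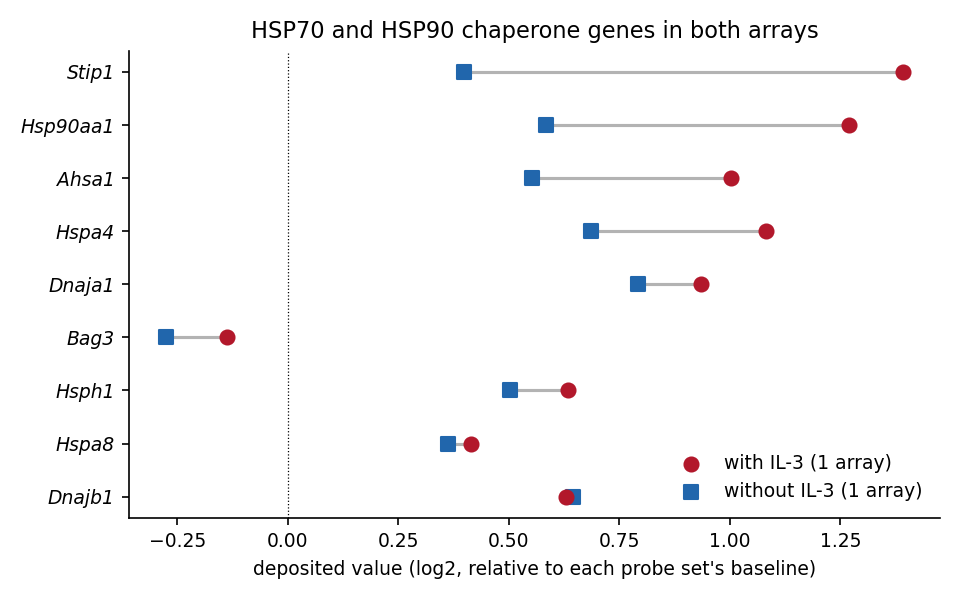
Deposited log2 value (horizontal axis, relative to each probe set's own baseline) of the 9 chaperone genes, with IL-3 as circles and without IL-3 as squares, 1 array each. The lines are longest for Stip1 and Hsp90aa1, and the symbols of Dnajb1 overlap.

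The promoters of 4 of these genes are shown because heat shock genes are usually read through their heat shock elements, and the 4 include the largest and the smallest difference. The sequences are RefSeq's for GRCm38.p6, 5′ to 3′ on the gene's strand, and run over the 250 bases before the annotated start. For Hsph1 only a 30-base stretch around its heat shock element is given. Capitals mark a match to GAANNTTC or TTCNNGAA, the 2 ways in which neighbouring GAA units face each other, or to the element of 3 units, which is GAANNTTC followed by NNGAA or TTCNNGAA followed by NNTTC. Each element also holds both cores, and each motif's reverse complement is itself or the other form, so both strands were searched.
Stip1 (chr19:7040027-7040276, minus strand): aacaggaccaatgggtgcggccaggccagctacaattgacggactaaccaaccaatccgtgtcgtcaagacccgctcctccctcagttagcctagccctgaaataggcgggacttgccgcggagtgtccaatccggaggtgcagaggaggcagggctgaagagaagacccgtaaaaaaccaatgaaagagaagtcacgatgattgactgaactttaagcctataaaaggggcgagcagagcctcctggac
Dnaja1 (chr4:40722218-40722467, plus strand): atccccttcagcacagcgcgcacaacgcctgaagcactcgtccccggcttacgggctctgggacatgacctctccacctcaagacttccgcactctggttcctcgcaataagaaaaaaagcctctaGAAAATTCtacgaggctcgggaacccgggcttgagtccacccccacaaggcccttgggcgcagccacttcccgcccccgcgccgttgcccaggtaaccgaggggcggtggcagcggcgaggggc
Dnajb1 (chr8:83607925-83608174, plus strand): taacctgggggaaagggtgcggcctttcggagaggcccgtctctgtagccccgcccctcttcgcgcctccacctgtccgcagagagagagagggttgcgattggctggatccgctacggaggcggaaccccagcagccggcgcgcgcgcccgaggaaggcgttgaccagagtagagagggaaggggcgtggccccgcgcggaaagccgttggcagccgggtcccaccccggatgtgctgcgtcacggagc
Hsph1 (chr5:149636280-149636309, minus strand): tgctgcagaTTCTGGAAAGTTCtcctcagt

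The promoter table held windows for 7 of the 10 genes, each from 250 bases before to 50 after an annotated start. Hspa8, Hsp90aa1 and Hsp90ab1 had no window, so Hsp90aa1, which was past 1.5-fold, was not searched for the heat shock element. The element of 3 units lay in the windows of 1 gene, Hsph1, beginning at position 16 or 37 after its annotated starts, and in 0.603% of all 32851 windows. GAANNTTC lay in the windows of 3 genes, at position -124 in Dnaja1, 43 in Bag3, and 21 or 42 in Hsph1, and in 7.86% of all windows. TTCNNGAA, added after the data were seen, lay in those of Hsph1 alone and in 8.52% of all windows. Each Hsph1 window held 2, the first at position -33 or -54, before the annotated start and outside the stretch shown. None of these motifs was in the windows of Stip1, Ahsa1, Hspa4 or Dnajb1. The gene with the element of 3 units differed by 0.13, and the gene with the largest difference had none of these motifs in its window. The element was also absent from the windows of the heat shock genes Hspa1a and Hspb1. A window without a match therefore does not show that a gene lacks such control. Whether heat shock elements had a part in the differences was not tested. Over the 88 measured genes with the element in a window, the median difference was 0.03, beside 0.04 over the 15612 measured genes with any window.

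Stip1 encodes the adaptor that holds HSP70 and HSP90 together while a client passes between them. Its value was 1.39 with IL-3 and 0.40 without IL-3, the largest gap of the set. The gene was 1.99-fold higher with IL-3, just under 2-fold, and ranked 91 of 19935 genes counted from the highest difference. Across all genes, 0.441% were at least 2-fold higher and 0.657% at least 2-fold lower, and 0 of the 9 chaperone genes passed either bound. In the highest 25% of genes by mean value, which holds Stip1, these shares were 1.71% and 1.67%.

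Hsp90aa1 encodes the stress-inducible cytosolic HSP90. Its value was 1.27 with IL-3 and 0.58 without IL-3, which is 1.61-fold higher with IL-3. Its difference was larger than that of 97.8% of all genes. After quantile normalization the difference was 0.56, and after a loess trend was subtracted 0.39, both below 1.5-fold. Ahsa1, the activator of the HSP90 ATPase, had 1.00 with IL-3 and 0.55 without IL-3, 1.37-fold higher. That difference exceeded the pooled SD between probe sets but did not reach 1.5-fold. It was 0.32 after quantile normalization and 0.23 after loess.

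At a bound of 1.5-fold, 2 of the 9 genes (22.2%) were higher with IL-3, namely Stip1 and Hsp90aa1, and 0 were lower. Over all genes 3.52% were at least 1.5-fold higher and 2.71% at least 1.5-fold lower. Because the set was chosen with earlier results of these data known, these shares only describe it. The comparison with all genes is uneven, because 8 of the 9 chaperone genes lay in the highest 25% of genes by mean value, where differences scattered more (scaled median absolute deviation 0.42, against 0.17 over all genes). Within those genes 12.8% of 4984 genes were at least 1.5-fold higher and 6.68% at least 1.5-fold lower. Stip1 lay above 98.2% of them, Hsp90aa1 above 91.9%, Ahsa1 above 79.3% and Hspa4 above 75.4%. The other 4 genes of the set found there lay above 38.0% (Dnajb1) to 53.0% (Dnaja1) of them, near the middle.

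**Figure D2:**
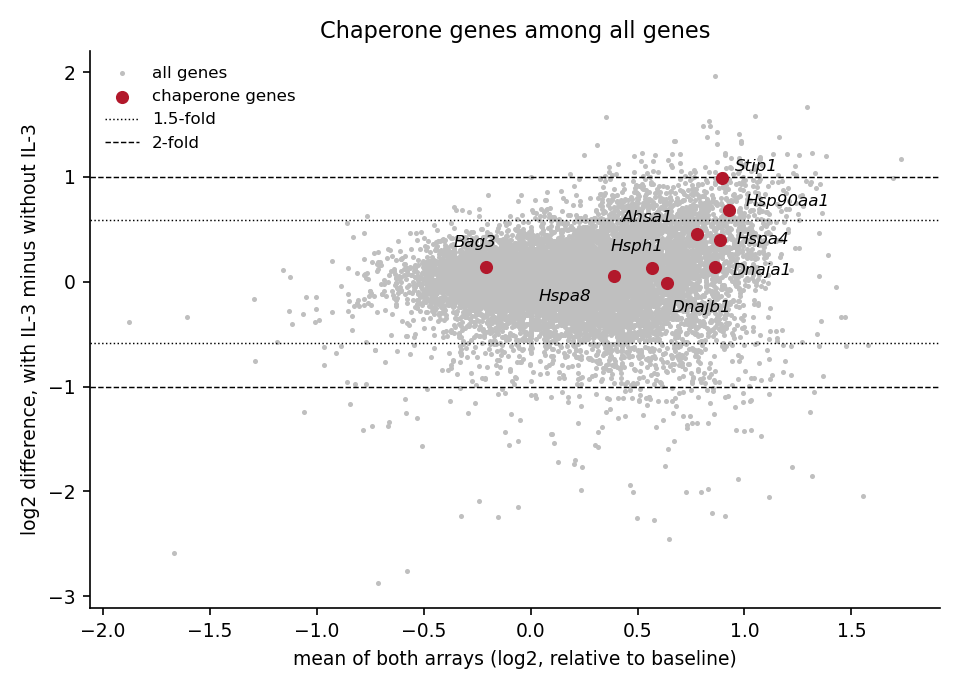
Difference with IL-3 minus without IL-3 (vertical axis, log2) against the mean of both arrays (horizontal axis, log2 relative to baseline) for 19935 genes in grey and the 9 chaperone genes in red, with lines at 1.5-fold and 2-fold. Stip1 lies just under the 2-fold line and Hsp90aa1 just above the 1.5-fold line, and Bag3 is the member outside the highest 25% by mean.

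Among the genes of the HSP70 cycle, Hspa4 differed most. It encodes an HSP110 protein, a relative of HSP70 that acts as its nucleotide exchange factor, and had 1.08 with IL-3 and 0.69 without IL-3. This is 1.32-fold higher with IL-3, a log2 difference of 0.40 that was 0.12 once the loess trend was subtracted. Hsph1, the other HSP110 gene, is strongly heat-inducible and had 0.63 with IL-3 and 0.50 without IL-3, a difference of 0.13. The 2 HSP110 genes thus differed by unequal amounts, and that of Hsph1 was within the pooled SD between probe sets. Bag3 encodes a BAG-domain exchange factor that couples HSP70 to selective autophagy. It was below baseline in both arrays, at -0.14 with IL-3 and -0.28 without IL-3, again a difference of 0.14 and within that SD. The J-protein gene Dnajb1, the HSP40 partner of HSP70 and a classical HSF1 target, had 0.63 with IL-3 and 0.65 without IL-3. Its difference of -0.01 was the smallest in size and the only one below 0.

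For the constitutive HSP70 gene Hspa8 and the J-protein gene Dnaja1, the direction depended on the probe set. Both genes, like Hsp90aa1, had several probe sets, and these do not all sit at the gene. On this array the probe set numbers run along the chromosomes: for 96.8% of 21686 probe sets, the 10 named neighbours on each side lay most often on the chromosome of the probe set's own gene. By that order, the probe sets with the highest mean for Hspa8, Dnaja1 and Hsp90aa1 lay among those of chromosomes 10, 5 and 11, whereas the genes are on chromosomes 9, 4 and 12. Near-identical copies of these genes elsewhere in the genome could share their probes, so these values are uncertain.

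Hspa8 had 0.41 with IL-3 and 0.36 without IL-3 in the probe set used (10368025), a difference of 0.05, and a second one numbered on chromosome 5 (10528021) differed by 0.07. The single-symbol probe set numbered on the gene's own chromosome (10584572) had 0.21 with IL-3 and 0.46 without IL-3, a difference of -0.25. A pair of further probe sets name Hspa8 together with the small nucleolar RNA genes Snord14c and Snord14d, which lie in its introns, and both differed by 0.07. The Hspa8 probe sets therefore point both ways. Dnaja1, a class A J-protein, had 0.94 with IL-3 and 0.79 without IL-3 in the probe set used (10521587), a difference of 0.14. Its probe set on chromosome 4 (10503995) had 0.13 with IL-3 and 0.36 without IL-3, a difference of -0.23. One more, shared with the microRNA gene Mir207, differed by -0.15. For both genes the single-symbol probe set at the gene's own chromosome was lower with IL-3, at sizes above the pooled SD. The pair that Hspa8 shares with Snord14c and Snord14d is numbered beside that of Hspa8 and went the other way.

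Hsp90aa1 did not depend on this choice. Its 3 probe sets differed by 0.69, 0.61 and 0.60, the second being the one numbered on chromosome 12, and all lay past 1.5-fold. With own-chromosome probe sets wherever a gene had one, a choice added after the data were seen, 6 of the 9 chaperone genes were above 0 and Dnaja1, Dnajb1 and Hspa8 were below. Of the 998 genes with several probe sets, 285 had differences of both signs, at any size, so a split in sign is not particular to Hspa8 and Dnaja1. The single-symbol probe sets of these 2 genes spanned 0.32 and 0.38, and splits of that width were not counted.

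**Figure D3:**
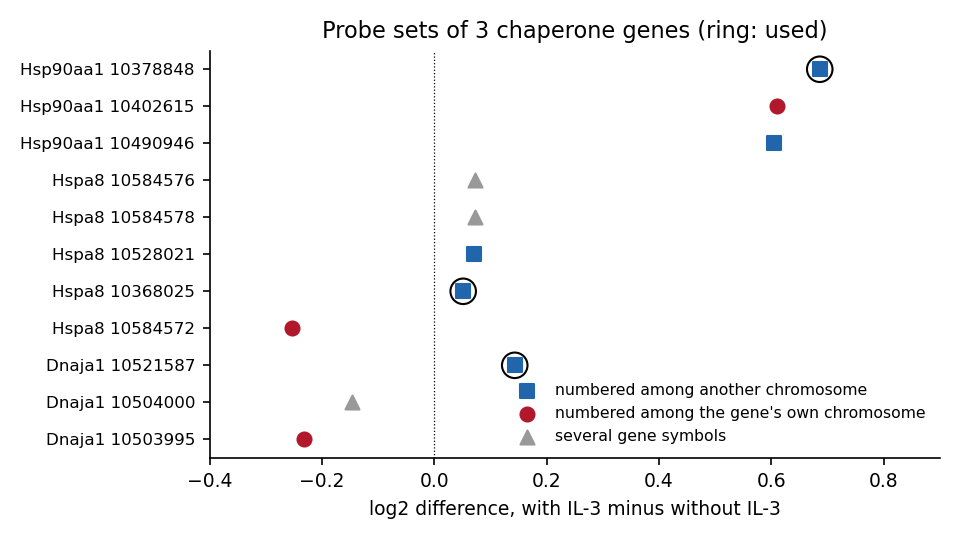
Difference with IL-3 minus without IL-3 (horizontal axis, log2) of every probe set that names Hsp90aa1, Hspa8 or Dnaja1, coloured by whether its number falls among probe sets of the gene's own chromosome, with a ring around the one used. The single-symbol own-chromosome probe sets of Hspa8 and Dnaja1 lie at -0.25 and -0.23, and all 3 of Hsp90aa1 lie at 0.60 or above.

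Of the order of differences, Stip1 stood 0.31 above Hsp90aa1, which stood 0.24 above Ahsa1, gaps larger than the pooled SD between probe sets. Ahsa1 and Hspa4 were 0.06 apart, the steps between Dnaja1, Bag3 and Hsph1 were 0.01 each, and those down to Hspa8 and Dnajb1 were 0.08 and 0.07. Hspa4 stood 0.25 above Dnaja1. Neighbours less than the pooled SD apart cannot be ordered. A gap larger than the pooled SD does not establish an order either, since that SD is a lower bound on the error of a single difference. With 2 arrays no likeness of pattern to other genes can be measured.

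Among the other co-chaperones of HSP90, 14 of the 16 measured were above 0, against 59.8% of all genes, and their median was 0.20. The bound of 1.5-fold was passed by 3 on the higher side and 0 on the lower side. Aarsd1, an alanyl-tRNA synthetase-like gene listed for its co-chaperone form in muscle, had 0.94 with IL-3 and 0.12 without it, 1.76-fold higher. Ptges3, which encodes p23 itself, the protein that stabilises the closed HSP90 clamp, was 1.62-fold higher by the probe set with the highest mean. The probe set numbered on that gene's own chromosome differed by 0.50, below 1.5-fold, and the loess setting gave 0.26. Fkbp4, an immunophilin of steroid receptor complexes, differed by 0.59, just past 1.5-fold. After quantile normalization or loess only Aarsd1 of this list passed the bound. The lowest were Cdc37l1, a relative of the kinase co-chaperone gene Cdc37, at -0.26 and Ttc4 at -0.09. The share past 1.5-fold higher was 18.8%, against 3.52% of all genes and 12.8% of the highest 25% by mean, where 9 of these 16 genes lay.

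The rest of the cytosolic HSP70 system went both ways. Of 20 genes measured of 21 listed, 14 were above 0, against 59.8% of all genes, with a median of 0.12. Of the 20, 3 passed 1.5-fold on the higher side and 1 on the lower side. Dnajc21, a J-protein linked to ribosome assembly, was 1.65-fold higher, Hspa14, the HSP70 of the ribosome-associated complex, 1.54-fold, and Bag2, a BAG-domain cofactor that restrains the ubiquitin ligase CHIP, 1.52-fold. The J-protein gene Dnajb4 was the lower one, with 0.44 with IL-3 and 1.08 without IL-3, 1.56-fold lower. The 3 higher genes are 15.0% of the list, against 3.52% of all genes and 12.8% of the highest 25% by mean, where 12 of the 20 lay. After quantile normalization 1 gene was past 1.5-fold higher and 2 lower, and after loess 0 and 1, with Dnajc21 at 0.58, Bag2 at 0.44 and Hspa14 at 0.41. Dnajb2, a J-protein gene with ubiquitin-binding motifs, differed by -0.57. Hspa1a, the strongly heat-inducible HSP70 gene, named here after its value was seen, had -0.01 with IL-3 and -0.02 without IL-3, a difference of 0.01. Its near-identical neighbour Hspa1b had no probe set of its own, so that value may mix both.

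Of the heat shock factors, Hsf2 and Hsf4 each differed by 0.07, within the pooled SD between probe sets. Hsbp1, a binding partner of HSF1, differed by -0.22, more than that SD. Hsf1 was not analysed here. The small heat shock proteins, which hold unfolded proteins without ATP, had 6 of 7 genes above 0, against 59.8% of all genes, and a median of 0.11. Of these, Hspb6 was 1.52-fold higher with IL-3, but had 0.47 after quantile normalization and 0.33 after loess, which left 0 of the 7 past 1.5-fold. As deposited, that 1 of 7 is 14.3%, against 3.52% of all genes and 12.8% of the highest 25% by mean, where 1 of the 7 lay. Hspb8 differed by 0.21, while Hspb1, another classical heat shock gene, differed by 0.04 and Hspb2 by -0.10.

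The ring-shaped chaperonin CCT, which folds actin and tubulin, and prefoldin, which feeds it, were listed together. Of their 14 genes, 12 were above 0, against 59.8% of all genes, with a median of 0.44. Of the 14, 5 passed 1.5-fold on the higher side and 0 on the lower side. All 5 were subunits of CCT, where all 8 genes were above 0 with a median of 0.61, against a median of 0.21 over the 6 prefoldin genes. The CCT gene Cct6a had 1.62 with IL-3 and 0.77 without IL-3, 1.80-fold higher, and Tcp1, Cct8, Cct3 and Cct7 were 1.70-fold, 1.62-fold, 1.54-fold and 1.51-fold higher. The prefoldin genes Vbp1 and Pfdn5 differed by -0.21 and -0.17. The 5 genes are 35.7% of the list, against 3.52% of all genes and 12.8% of the highest 25% by mean. In this list 13 of 14 genes lay in the highest 25% by mean, and 0 passed 1.5-fold once the loess trend was subtracted.

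The relatives of HSP70, HSP110 and HSP90 in other compartments were all above 0, 5 of 5, against 59.8% of all genes, with a median of 0.51. Trap1, the mitochondrial HSP90, had 0.68 with IL-3 and -0.12 without it, 1.74-fold higher. It alone passed 1.5-fold, 20% of the 5, against 3.52% of all genes and 12.8% of the highest 25% by mean, where 3 of the 5 lay. Hyou1, the HSP110 of the endoplasmic reticulum, was 1.46-fold higher, Hspa5, its HSP70, differed by 0.37 and Hsp90b1, its HSP90, by 0.24. Of kinases known to be HSP90 clients, 7 of 9 were measured, and 4 of the 7 were above 0, against 59.8% of all genes. Only the cell cycle kinase gene Cdk4 passed 1.5-fold, at 1.58-fold higher. It had 0.56 after quantile normalization and 0.45 after loess, both below the bound. This 1 of 7 is 14.3%, against 3.52% of all genes and 12.8% of the highest 25% by mean, where 3 of the 7 lay. Akt1 differed by 0.25, Jak2, which signals below the IL-3 receptor, by -0.28 and Abl1 by -0.26.

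**Figure D4:**
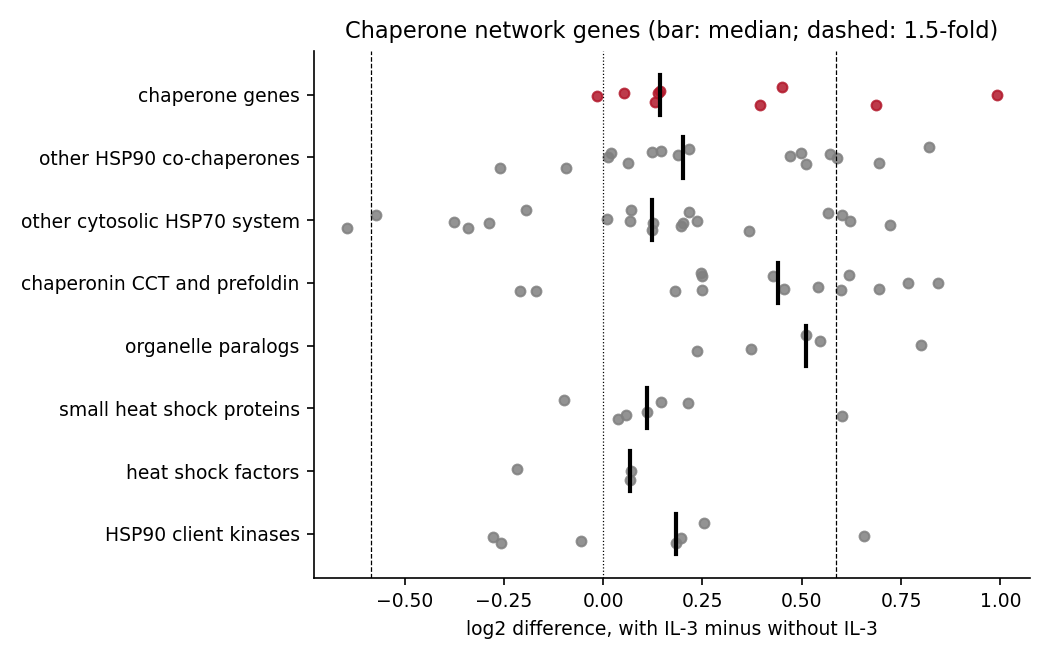
Difference with IL-3 minus without IL-3 (horizontal axis, log2) of each measured gene of the chaperone set, in red, and of 7 further lists, in grey, with a bar at each median and dashed lines at 1.5-fold. The medians are 0.14 for the chaperone set, 0.44 for CCT and prefoldin, 0.51 for the organelle relatives and 0.20 or less for the other 5 lists.

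Other settings changed the size of the largest differences and the direction of Dnaja1 and Hspa8. Stip1 kept a difference between 0.71 and 1.43 over the 8 other settings tried and passed 1.5-fold in all 8, while Hsp90aa1 passed it in 6 of them. Ahsa1, Hspa4 and Hsph1 were above 0 in all 8, and Bag3 in the 7 that kept it. Dnaja1 was above 0 in 3 of 8 and Hspa8 in 5 of 8. The difference of Dnajb1 ranged from -0.17 to -0.01. Where a gene had 1 probe set, as Stip1, Ahsa1, Hspa4, Hsph1, Bag3 and Dnajb1 did, the probe set choices could not change its value. For these genes the filter only keeps or drops the gene, and natural logs enlarge a difference without turning it. Only median centring, quantile normalization and loess could make such a difference smaller.

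**Figure D5:**
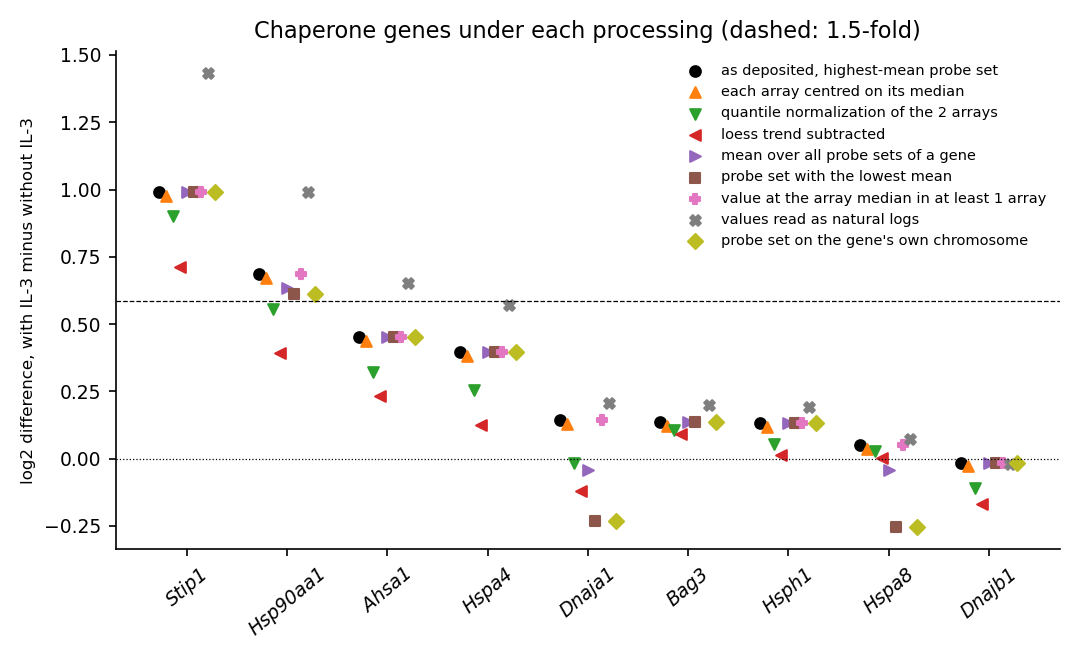
Difference with IL-3 minus without IL-3 (vertical axis, log2) of each of the 9 chaperone genes (horizontal axis) as reported, in black, and under 8 other scalings, probe set choices, filters or log bases. Stip1 stays above the dashed 1.5-fold line under every setting drawn, and Dnaja1 and Hspa8 lie on both sides of 0.

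Because values are relative to a baseline, the cell type could not be checked by marker levels. Of 9 measured B-lineage markers, differences ran from -0.35 for Cd79a and -0.24 for Cd79b to 0.12 for Igll1 and 0.23 for Vpreb2, and 0 passed 1.5-fold. Of 8 mast cell and basophil markers, 4 passed 1.5-fold on the lower side, the IgE receptor gene Fcer1a most (-0.58 with IL-3, 1.88 without), then Cpa3, Cma1 and Ms4a2 at -1.11, -1.10 and -0.92; over all genes 2.71% passed that bound. The other 4 stayed within it, with Kit at 0.18, Hdc at 0.00, Mcpt8 at -0.09 and Gata2 at -0.21. The median of these 8 genes was -0.20 with IL-3 and 0.49 without IL-3. The part of these markers in the chaperone differences was not tested.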

How the data were processed

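RNA from 2 cultures was measured on 1-colour mouse gene arrays, 1 array a culture, after labelling with biotin, per the labels' protocols. The authors deposited 1 log2-like value per probe set, 28815 in all, with a median of -0.03 for Live-IL3 and -0.05 for Live-NoIL-3. Both values cancel to within 1e-05 in 1760 probe sets, which a baseline subtracted per probe set can give. The sources used here do not give the summarisation, normalization, log base or baseline. Probe sets were named by the platform annotation (21780 with 1 symbol, 1605 with several, 5430 with none), chromosomes came from RefSeq's GRCm38.p6 table, and the highest-mean probe set stood for a gene. Differences were computed in Python 3.11.15 with pandas 2.3.3, and the loess trend (span 0.3) with statsmodels 0.14.6; the code was tested on simulated data. With 1 array a group nothing was tested, and the precision is limited by the number of arrays. Bounds were 1.5-fold and 2-fold. Named genes were all members and, of each further list, its 2 highest, 2 lowest and any past 1.5-fold. Members and lists were chosen with earlier results of these data known. Also tried were median centring, quantile normalization, loess, the mean or the lowest-mean probe set, a filter at the array median and natural logs; the own-chromosome probe set was added after seeing the data.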

Additional observations from a re-analysis of the deposited data

How the results depend on the processing

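The median difference of the chaperone genes stayed within the probe set SD of 0.14 of its value, positive throughout, in all 8 settings; it ranged from 0.09 after loess to 0.27 under the filter at the array median, which dropped Bag3. The count of chaperone genes past 1.5-fold was 1 in place of 2 after quantile normalization and after loess, where Hsp90aa1 had 0.56 and 0.39; the cause was not tested. It kept within 1.5 times its value in the other settings, among them natural logs, which gave 3. Among all genes, 219 passed 2-fold and 1241 passed 1.5-fold as deposited; values read as natural logs gave 794 and 2555, since that reading enlarges every difference. Genes higher with IL-3 made up 40.2% of those past 2-fold (88 higher, 131 lower), 27.8% after quantile normalization (62 higher, 161 lower) and 12.4% after loess (29 higher, 205 lower). Past 1.5-fold they made up 56.5% (701 higher, 540 lower), 42.7% (480 higher, 645 lower) and 32.6% (357 higher, 738 lower). CCT and prefoldin genes past 1.5-fold numbered 5 as deposited, 2 after quantile normalization and 0 after loess. The other co-chaperones of HSP90 past it numbered 3, 1 and 1 in the same order, the other HSP70-system genes 4, 3 and 1, and the small heat shock protein and client kinase genes 1, 0 and 0 each. Of 527 further values for single genes and lists, 451 moved by less than the probe set SD or, for counts, by at most 1.5 times, 76 moved more, and 0 past 1.5-fold turned their direction. Genes with 1 probe set keep their value under the probe set choices and the filter, so many of the 451 were fixed in advance. The tally is therefore no measure of how robust the values are. The filter uses baseline-relative values and is no filter on level. No paired analysis was possible because each group has 1 array.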
